A study of Mus musculus with 20 samples.

Results

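Interferon response and MHC class I genes were followed in cells of the mouse dentate gyrus and in cultured neural stem cells (NSCs). The group holds 39 genes taken by symbol from the gene list of 27998 genes used for single-cell RNA-seq (scRNA-seq), and it was described here by role as 6 transcription factors, 4 interferon receptor subunits, 8 genes of class I antigen presentation and 21 interferon-induced genes. All 39 symbols were found in the single-cell list and 38 in the list of 24062 genes used for RNA-seq of cultured cells, which lacked Ifit3b. The single-cell data came from dentate gyrus cells of Nestin-EGFP mice, whose background was C57BL/6, sorted for EGFP and for exclusion of the dead-cell dye 7-AAD, at postnatal day 5 (P5), 12 weeks (12W) and 24 weeks (24W), with 1 scRNA-seq and 1 scATAC-seq library per age and no treatment or further allele named in the labels. The cultured cells were mouse NSCs, for which the study's methods describe repeated passage of cells taken from embryonic cortex while the labels of the libraries give the hippocampus as tissue. They were infected with lentivirus for a short hairpin RNA against Setd8 or for a scrambled control, selected with puromycin and collected 3 days after infection. Both culture groups therefore carried a lentivirus and had been exposed to puromycin. EGFP under the Nestin promoter marked NSCs and also vascular cells, so the sorted cells were a mixture whose composition changed with age.

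Interferons are secreted when cells sense viral nucleic acid or are stimulated by immune cells. Type I interferons bind a receptor made of Ifnar1 and Ifnar2 and act through a nuclear complex that holds Stat2 and Irf9 and binds the interferon-stimulated response element (ISRE). Interferon gamma binds Ifngr1 and Ifngr2 and acts on genes with a gamma-activated site (GAS). Among the induced genes are antiviral effectors and the machinery that cuts peptides, carries them into the endoplasmic reticulum and presents them on MHC class I at the cell surface, which neurons and their precursors are known to show at low levels compared with endothelial cells.

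The scRNA-seq libraries gave 12752, 5271 and 2794 cells at P5, 12W and 24W, with a median of 4261, 2271 and 2178 unique molecular identifiers (UMIs) per cell, and cells were placed in classes by clusters and marker genes without using the 39 genes. NSC-like cells numbered 1384, 355 and 99, pericyte-like (PC-like) cells 382, 2444 and 1740, and endothelial-like (EC-like) cells 12, 89 and 106. Of 9 NSC markers, 5 at each age were highest in NSC-like cells, while all 7 EC markers were highest in EC-like cells at each age. Astrocyte-like cells were highest for 5, 5 and 4 of 9 astrocyte markers at P5, 12W and 24W. The immature neuron-like class IMN1 was highest for 4, 4 and 3 of its 6 markers and IMN2 for 5, 3 and 4 of 7. Dividing progenitor-like cells were highest for all 7 of theirs and PC-like cells for 7 of 8 at each age. The ages also differed in sex, since Xist without Y-linked RNA was found in 92.4% of cells at 12W and in 0.0358% at 24W, and P5 held both patterns. Age and sex cannot be told apart except where P5 cells of like sex were used, and with 1 library per age none of the differences with age has a replicate check. Free RNA outside cells was predicted from barcodes of 10 to 100 UMIs, which were listed at 12W and 24W and not at P5, and it came to 9.67% and 10.9% of the UMIs of NSC-like cells. Where predicted free RNA was subtracted, P5 levels stayed as measured. Pairs of libraries shared 26 to 86 cell barcodes. Levels are pooled UMIs of a class scaled to a total of 1000000 (CPM), and all intervals given are 95% intervals for counting error only.

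Of the 39 genes, 34 had a promoter in the RefSeq table of GRCm38.p6, reaching from 250 bases before to 50 bases after the start site, and 5 (Usp18, Ifi27, Parp14, Tap2 and Nlrc5) were not in it. The ISRE core (GAAA, any 2 bases, GAAA), searched on both strands with overlapping matches counted, was found in 14 of the 34, compared with 3.99% of 27025 genes with a promoter. By role it was found in 12 of 18 induced genes, 1 of 7 class I genes (B2m), 1 of 5 transcription factors (Stat2) and 0 of 4 receptors. The GAS core TTCNNNGAA, a palindrome searched in the same way, was found in 8 of 34, compared with 9.55% of all genes, and the matches were in Irf1, Ifit2, Ifitm3, Bst2, Ifi35, Ifnar1, Ifnar2 and Psmb8. A match is a description of letters and not a bound site. The 160 bases just before the start site are shown for 4 induced genes with the ISRE core (Isg15 at chr4:156200819-156200978 on the minus strand, Ifit1 at chr19:34640729-34640888 on the plus strand, Ifit3 at chr19:34583369-34583528 on the plus strand and Rsad2 at chr12:26456453-26456612 on the minus strand), for the class I light chain B2m at chr2:122147527-122147686 on the plus strand, for the transcription factor Irf1 at chr11:53769854-53770013 on the plus strand and for the class I heavy chain H2-D1 at chr17:35262934-35263093 on the plus strand. These were chosen because the values of the genes are described at length and because they show an ISRE core in 1 or more copies, a GAS core (Irf1) and no match (H2-D1). Each runs 5′ to 3′ along the gene's own strand, and capitals mark the bases of a match, with overlapping matches merged into 1 run.
Isg15: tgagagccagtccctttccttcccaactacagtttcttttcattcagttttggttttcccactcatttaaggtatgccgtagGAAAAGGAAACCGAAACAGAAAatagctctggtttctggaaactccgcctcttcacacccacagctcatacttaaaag
Ifit1: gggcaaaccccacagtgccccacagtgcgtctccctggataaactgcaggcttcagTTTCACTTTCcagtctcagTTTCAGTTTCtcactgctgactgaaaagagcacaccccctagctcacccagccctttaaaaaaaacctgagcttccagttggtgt
Ifit3: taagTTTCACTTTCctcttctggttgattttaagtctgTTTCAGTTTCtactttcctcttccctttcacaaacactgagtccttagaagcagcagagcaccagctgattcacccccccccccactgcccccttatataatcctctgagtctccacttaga
Rsad2: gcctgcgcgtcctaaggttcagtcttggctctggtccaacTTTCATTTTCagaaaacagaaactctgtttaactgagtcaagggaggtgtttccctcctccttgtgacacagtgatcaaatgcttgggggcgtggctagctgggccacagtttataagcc
B2m: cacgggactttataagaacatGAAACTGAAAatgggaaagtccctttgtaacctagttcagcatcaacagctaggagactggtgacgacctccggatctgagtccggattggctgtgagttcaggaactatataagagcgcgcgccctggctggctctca
Irf1: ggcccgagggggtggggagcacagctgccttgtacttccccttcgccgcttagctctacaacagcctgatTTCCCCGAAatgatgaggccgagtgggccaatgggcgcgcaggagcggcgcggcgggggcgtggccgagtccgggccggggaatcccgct
H2-D1: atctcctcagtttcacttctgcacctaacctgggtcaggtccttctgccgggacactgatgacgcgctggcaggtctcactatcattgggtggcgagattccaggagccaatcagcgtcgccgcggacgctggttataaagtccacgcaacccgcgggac
In Isg15, 3 overlapping matches began 78, 72 and 66 bases before the start site. Matches in Ifit1 and Ifit3 lay on the opposite strand, and 2 were found in each.

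Of the 39 genes, 26 averaged at least 10 CPM over the ages in NSC-like cells, and the other 13 were not compared. Of the 26, 19 were at least 2-fold higher at both 12W and 24W, while 0 were at least 2-fold lower. The same rule gave 8.56% of 8865 genes higher and 2.97% lower. A gene low at P5 entered this comparison only when it was high later, so the count was also taken over the 14 genes with at least 10 CPM at P5, where 7 were higher at both ages, next to 5.04% of all genes so chosen. These 7 were Ifitm3, Ifi27, Ifnar2, Ifngr1, B2m, H2-D1 and H2-K1. The other 7 were Irf9, Stat2, Stat3, Ifitm2, Ifnar1, Ifngr2 and Tapbp. The median log2 ratio to P5 was 1.40 at 12W and 1.18 at 24W over these 14 genes, and 0.01 and 0.00 over all genes so chosen. With P5 cells of like sex, 20 were higher, Stat2 being added, and 15 were higher after the predicted free RNA was subtracted, with Ifitm1, Ifitm3, Isg15 and Ifi35 no longer past the rule. Of these, Isg15 kept ratios of 8.201-fold and 6.53-fold and Ifi35 of 11.1-fold and 4.47-fold and missed only the mean of 10 CPM, while Ifitm3 came to 1.14-fold and 1.16-fold and Ifitm1 to 0. The counts of 20 and 15 stand without a share of all genes under the same change.

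**Figure D1:**
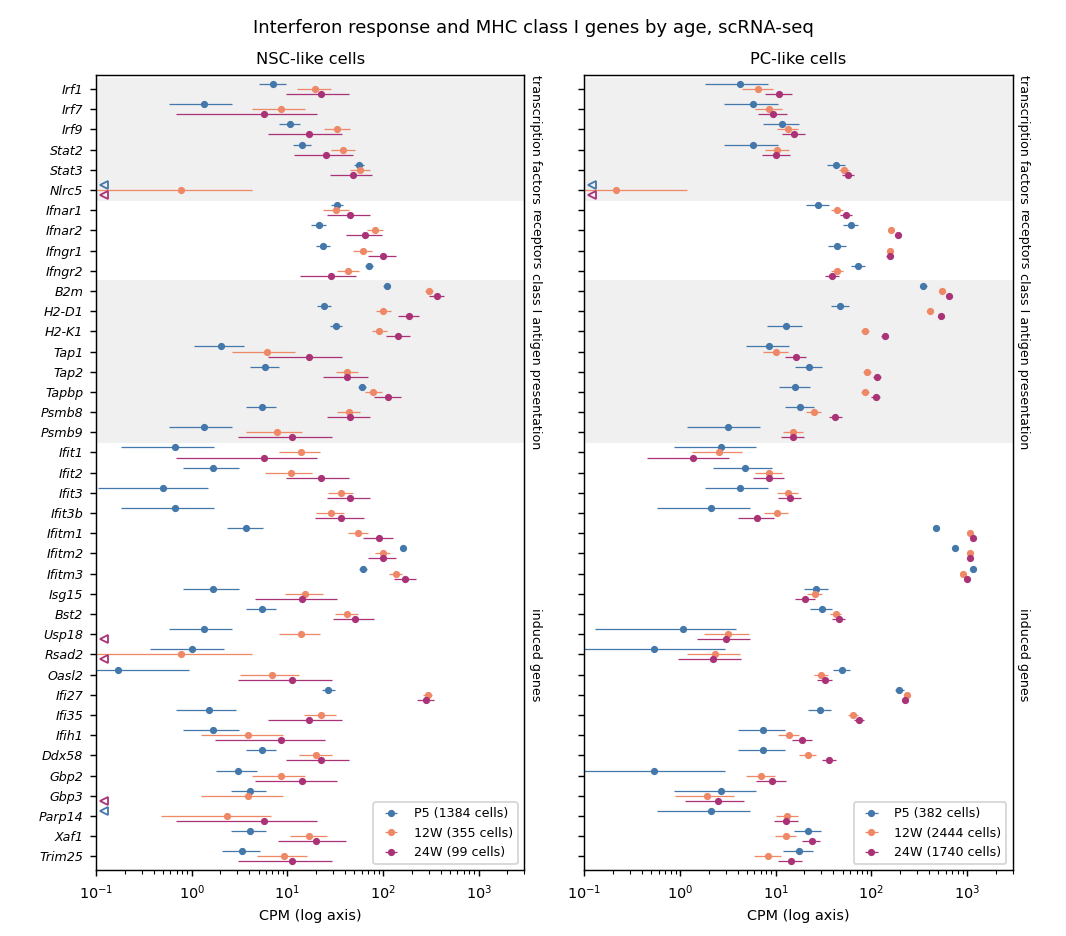
Level of each of the 39 genes in NSC-like cells (left) and PC-like cells (right) on a log CPM axis, with points for P5, 12W and 24W, bars for 95% Poisson intervals and open triangles at the left edge for genes without a UMI. In NSC-like cells B2m went from 109 to 302 and 365 CPM, and in PC-like cells H2-D1 went from 47.3 to 414 and 537 CPM.

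Among the transcription factors, 4 of 6 could be compared in NSC-like cells and 1, Irf1, passed the rule of size. Irf1 was under 10 CPM at P5 and entered through its adult levels, while Irf9, Stat2 and Stat3 were above 10 CPM at P5 and did not pass. Irf1, a factor that interferon gamma induces, was at 7.09, 19.3 and 22.7 CPM (42, 25 and 8 UMIs) at P5, 12W and 24W. Its ratios to P5 were 2.72 (1.59 to 4.57) and 3.197 (1.30 to 6.89). Irf9 and Stat2, both part of the ISRE-binding complex, were at 10.6, 33.2 and 17.0 CPM and at 14.3, 38.6 and 25.5 CPM. Both were over 2-fold higher at 12W and not at 24W, where their intervals against P5 included 1. Stat3, which acts chiefly in cytokine signalling of the interleukin-6 family, was at 56.2, 57.9 and 48.2 CPM and varied by less than its counting error. Irf7, the factor that amplifies type I interferon production, had 8, 11 and 2 UMIs, and Nlrc5, the transactivator of class I genes, had 0, 1 and 0, so neither could be compared.

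The receptor subunits differed among themselves. Ifnar2 was at 21.3, 82.6 and 65.1 CPM (126, 107 and 23 UMIs), with ratios of 3.89 (2.97 to 5.07) and 3.06 (1.87 to 4.80). Ifngr1, the ligand-binding chain for interferon gamma, was at 23.8, 61.8 and 99.1 CPM (141, 80 and 35 UMIs), with ratios of 2.60 (1.95 to 3.44) and 4.17 (2.79 to 6.07). For both genes, neither adult interval reached 1. Their partner chains did not share this pattern. Ifnar1 was at 33.1, 32.4 and 45.3 CPM, with both ratios inside counting error of 1, and Ifngr2 was at 71.9, 43.2 and 28.3 CPM (426, 56 and 10 UMIs), with ratios of 0.602 (0.447 to 0.796) and 0.394 (0.188 to 0.732), below P5 at both ages.

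Of the 8 genes of class I antigen presentation, 6 could be compared and 5 were higher at both adult ages. Tap2 and Psmb8, 2 of the 5, were under 10 CPM at P5 and entered through their adult levels. Among class I genes with at least 10 CPM at P5, B2m, H2-D1 and H2-K1 were higher and Tapbp was not. B2m, the light chain shared by all class I molecules, was at 109, 302 and 365 CPM (648, 391 and 129 UMIs), with ratios of 2.76 (2.43 to 3.14) and 3.34 (2.74 to 4.04). The heavy chain H2-D1 was at 24.5, 101 and 187 CPM (145, 131 and 66 UMIs), with ratios of 4.13 (3.24 to 5.27) and 7.64 (5.62 to 10.3). The heavy chain H2-K1 was at 32.6, 91.9 and 144 CPM (193, 119 and 51 UMIs), with ratios of 2.82 (2.23 to 3.56) and 4.43 (3.19 to 6.07). All 3 chains were thus higher at 12W and higher again in value at 24W, though H2-D1 and H2-K1 are near-identical in parts and reads shared between them may have been lost or split. Predicted free RNA came to 27.4% and 32.1% of the H2-D1 level and 14.8% and 17.6% of the B2m level. Tap2, a subunit of the peptide transporter, was at 5.91, 42.5 and 42.5 CPM (35, 55 and 15 UMIs), with ratios of 7.19 (4.62 to 11.3) and 7.19 (3.65 to 13.5). Psmb8, a catalytic subunit of the immunoproteasome, was at 5.40, 44.0 and 45.3 CPM (32, 57 and 16 UMIs), with ratios of 8.15 (5.20 to 12.99) and 8.39 (4.30 to 15.7). Because Tap2 and Psmb8 were chosen through these adult levels, their intervals are no check on the difference. Tapbp, which loads peptide onto class I, was at 60.6, 79.5 and 113 CPM and did not pass the rule, and Tap1 and Psmb9 were under 10 CPM on average, at 2.03 to 17.0 and 1.35 to 11.3 CPM. Summed over the 8 genes, the class I level was 242, 675 and 926 CPM at P5, 12W and 24W.

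Of the 21 induced genes, 3 had at least 10 CPM at P5 in NSC-like cells, and 2 of these, Ifitm3 and Ifi27, were higher at both adult ages. By the mean over the ages 12 could be compared and 11 were higher, but 9 of these 11 were under 10 CPM at P5 and entered through their adult levels, so that the filter set most of this count. Ifit3, of the family that binds viral RNA, was at 0.506, 36.3 and 45.3 CPM (3, 47 and 16 UMIs), with ratios of 71.7 (23.1 to 360.1) and 89.5 (25.6 to 479). Its near-identical neighbour Ifit3b was at 0.675, 28.6 and 36.8 CPM (4, 37 and 13 UMIs), with ratios of 42.3 (15.2 to 163) and 54.5 (16.9 to 229.6). These 2 genes had 3 and 4 UMIs in 1384 cells at P5, so the size of their ratios is poorly fixed, and reads may be split between them. Ifit2 was at 1.69, 10.8 and 22.7 CPM (10, 14 and 8 UMIs), with ratios of 6.41 (2.65 to 16.1) and 13.4 (4.60 to 37.8). Isg15, a ubiquitin-like modifier, was at 1.69, 15.4 and 14.2 CPM (10, 20 and 5 UMIs), with ratios of 9.15 (4.09 to 21.9) and 8.39 (2.25 to 26.9) and a predicted free share of 10.4% and 22.2%. It passed the filter of 10 CPM by a small margin, on 5 UMIs at 24W. Ifi27, a small interferon-induced membrane protein, was at 26.8, 293 and 280.4 CPM (159, 380 and 99 UMIs), with ratios of 10.9 (9.06 to 13.2) and 10.4 (8.05 to 13.5). Its predicted free RNA was 10.3% and 12.0% of the level at 12W and 24W. Bst2, which tethers budding virions to the cell surface, was at 5.40, 41.7 and 51.0 CPM (32, 54 and 18 UMIs), with ratios of 7.72 (4.90 to 12.4) and 9.44 (4.99 to 17.3). Ddx58, the RNA sensor RIG-I, was at 5.40, 20.1 and 22.7 CPM (32, 26 and 8 UMIs), with ratios of 3.72 (2.13 to 6.44) and 4.20 (1.67 to 9.30). Xaf1, an antagonist of an apoptosis inhibitor, was at 4.05, 17.0 and 19.8 CPM (24, 22 and 7 UMIs), with ratios of 4.19 (2.24 to 7.81) and 4.90 (1.78 to 11.7). These 3 genes were under 10 CPM at P5 and were chosen through their adult levels, so their intervals are no check on the difference.

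The remaining 3 induced genes past the rule carried more predicted free RNA. Ifi35, an interferon-induced leucine zipper protein, was at 1.52, 22.4 and 17.0 CPM (9, 29 and 6 UMIs), with ratios of 14.7 (6.80 to 35.4) and 11.2 (3.28 to 35.2) and a predicted free share of 24.6% and 60.1%. Ifitm3, a membrane protein that blocks virus entry, was at 61.9, 136 and 169.9 CPM (367, 176 and 60 UMIs), with ratios of 2.19 (1.82 to 2.63) and 2.74 (2.05 to 3.61) and a predicted free share of 47.9% and 57.7%. Ifitm1, of the same family, was at 3.71, 54.8 and 90.6 CPM (22, 71 and 32 UMIs), with ratios of 14.8 (9.04 to 25.0) and 24.4 (13.8 to 44.1). Its predicted free RNA came to 119% and 109% of the measured level, so the adult Ifitm1 values of NSC-like cells are not read as expression in them. Ifitm2 was at 161, 99.6 and 99.1 CPM, with a predicted free share of 89.9% and 123%, and did not pass. The 9 induced genes that could not be compared were Ifit1, Usp18, Rsad2, Oasl2, Ifih1, Gbp2, Gbp3, Parp14 and Trim25. Of these, Ifit1 had 4, 18 and 2 UMIs, Usp18 8, 18 and 0, and Parp14 0, 3 and 2. Summed over the 21 genes, the induced level was 289, 839 and 926 CPM at P5, 12W and 24W, and at 12W and 24W it was 578 and 572 CPM after predicted free RNA was subtracted from each gene.

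Markers of other cells also moved with age in NSC-like cells. The summed level of 7 EC markers was 16.4, 48.7 and 150.1 CPM at P5, 12W and 24W, with Cdh5 at 0 at each age, while in EC-like cells it was 8322, 22786 and 24932 CPM. The summed level of 7 microglia markers was 13.3, 53.3 and 42.5 CPM, with UMIs of 5, 4 and 5 of the 7 and with Cx3cr1 at 0 at each age. Their part in the higher levels of the interferon response genes was not tested.

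In astrocyte-like (AS-like) cells, 16 of 23 genes compared were higher at both adult ages and 1 lower, next to 10% and 4.87% of all genes, and over genes with at least 10 CPM at P5 the count higher was 7 of 12, next to 5.52%. After predicted free RNA was subtracted, 11 of 19 were higher, and for counts after subtraction in this paragraph no share of all genes is given. Ifit3, Ifi35 and Ddx58 then missed the mean of 10 CPM, while Ifitm1 came to 0-fold and 0.198-fold and Ifitm3, 1 of the 7, to 0.911-fold and 0.721-fold its P5 level. The lower gene was the receptor chain Ifngr2, at 71.8, 32.7 and 22.7 CPM (876, 36 and 7 UMIs), with ratios of 0.456 (0.317 to 0.636) and 0.317 (0.127 to 0.655). When each library was clustered alone, 13 of 21 were higher, also without such a share. Psmb8 in AS-like cells was at 1.56, 19.99 and 22.7 CPM (19, 22 and 7 UMIs), and Tap2 was at 8.03, 49.1 and 45.4 CPM (98, 54 and 14 UMIs), with ratios of 6.11 (4.30 to 8.61) and 5.66 (2.99 to 9.96). Ifi27 was also higher, at 17.8, 285 and 256 CPM (217, 314 and 79 UMIs). EC markers summed to 18.5, 51.8 and 312 CPM in AS-like cells and microglia markers to 14.9, 49.1 and 58.4 CPM, and their part was not tested. In dividing progenitor-like (NPC-like) cells, 8 of 15 genes were higher and 0 lower, next to 5.44% and 2.48% of all genes, and the count over genes of at least 10 CPM at P5 was 6 of 13, next to 2.64%. Of these 6, Stat2 and Ifi27 stayed past 2-fold at both ages after predicted free RNA was subtracted. Stat2 was at 12.6, 41.4 and 42.7 CPM (121, 72 and 14 UMIs), with ratios of 3.29 (2.42 to 4.44) and 3.39 (1.80 to 5.92) and a predicted free share of 3.04% and 3.73%. In the immature neuron-like classes IMN1 and IMN2, 7 of 14 and 4 of 14 genes were higher, next to 6.46% and 5.68% of all genes, and 0 were lower, next to 1.43% and 1.89%. The 4 in IMN2-like cells were Ifitm1, Ifitm3, Ifi27 and Ifngr1, and after subtraction of predicted free RNA 0 of these remained. In IMN1-like cells 2 remained (Stat2 and Ifngr1) and in NPC-like cells 3 (Stat2, Ifit2 and Ifi27). Stat2 in the 33 IMN1-like cells at 24W rested on 5 UMIs, with a ratio of 3.05 (0.895 to 8.38) before subtraction. Over genes with at least 10 CPM at P5, 2 of 8 (Ifitm3 and Ifnar2) were higher in IMN1-like cells and 1 of 9 (Ifitm3) in IMN2-like cells, next to 3.31% and 2.86%. None of these stayed past 2-fold at both ages after subtraction, when Ifnar2 came to 1.85-fold and 2.01-fold and Ifitm3 to 0.0121-fold and 0-fold in IMN1-like cells and to 0-fold and 0.0441-fold in IMN2-like cells. In ependymal-like cells 8 of 24 were higher and 0 lower, next to 6.26% and 4.78%, and over genes with at least 10 CPM at P5 5 of 17 were higher, next to 2.96%. After subtraction the 8 became 5, and of the 5 of 17 Ifi27 and H2-K1 stayed past 2-fold at both ages, while Ifitm1 came to 0, Ifitm3 to 1.97-fold and 2.04-fold and Tap2 to 1.99-fold and 1.77-fold. At P5, 12W and 24W, EC markers summed to 7.69, 64.9 and 88.4 CPM in NPC-like cells and to 2.12, 27.9 and 88.2 CPM in IMN1-like cells. The sums were 6.501, 40.7 and 120.3 CPM in IMN2-like cells and 29.0, 70.02 and 128 CPM in ependymal-like cells. Microglia markers summed to 12.9, 18.96 and 21.3 CPM in NPC-like cells and to 9.35, 20.03 and 25.9 CPM in IMN1-like cells. They summed to 11.3, 19.6 and 32.5 CPM in IMN2-like cells and to 20.3, 35.01 and 48.8 CPM in ependymal-like cells. The part of either list in these counts was not tested. Scaling by the median ratio over genes took some genes under 2-fold at 12W. These were B2m (1.81-fold) and H2-K1 (1.95-fold) in NPC-like, Ifnar2 and Tapbp (each 1.88-fold) in IMN1-like and Ifitm3 (1.93-fold) in AS-like cells. The class I level summed over 8 genes was 265, 736 and 815 CPM in AS-like, 157, 338 and 403 in NPC-like, 90.5, 160.2 and 249 in IMN1-like and 98.5, 147 and 283 in IMN2-like cells at P5, 12W and 24W. After subtraction it was 641 and 623 CPM at 12W and 24W in AS-like and 251 and 226 in NPC-like cells. It was then 87.0 and 56.1 CPM in IMN1-like and 67.9 and 116 CPM in IMN2-like cells. No free RNA could be subtracted at P5. Values under the P5 sum, at both adult ages in IMN1-like and at 12W in IMN2-like cells, are therefore not read as a fall. At each age the class I sum before subtraction was lower in both immature neuron classes than in NSC-like and AS-like cells of the same library.

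In PC-like cells 7 of the 11 genes past the rule were class I genes or receptors. Of 27 genes compared, 11 were at least 2-fold higher at both adult ages and 0 lower, next to 14.1% of 8443 genes higher and 6.55% lower. Over the 22 genes with at least 10 CPM at P5, 8 were higher, next to 9.4% of all genes. Over these 22 the median log2 ratio was 0.49 at 12W and 0.74 at 24W, and over all genes so chosen 0.09 and 0.13. By role the 11 were 5 of 8 class I genes, 2 of 4 receptors, 4 of 13 induced genes and 0 of 2 transcription factors, and of the 10 induced genes with at least 10 CPM at P5 2 were higher. Psmb9, 1 of the 5 class I genes, was under 10 CPM at P5 and entered through its adult levels.

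The class I heavy chain H2-D1 was at 47.3, 414 and 537 CPM (89, 1943 and 1947 UMIs) in PC-like cells at P5, 12W and 24W, with ratios of 8.75 (7.08 to 10.95) and 11.3 (9.17 to 14.2). H2-K1 was at 12.8, 86.3 and 138 CPM (24, 405 and 499 UMIs), with ratios of 6.77 (4.48 to 10.7) and 10.8 (7.16 to 17.0). Both heavy chains were many times their P5 level at each adult age, with a predicted free share of 6.32% and 8.73% for H2-D1. B2m was at 349.6, 548 and 642 CPM, with ratios of 1.57 (1.44 to 1.71) and 1.84 (1.68 to 2.01), below the 2-fold rule. Tap2 was at 22.3, 89.5 and 114 CPM (42, 420 and 415 UMIs), with ratios of 4.01 (2.92 to 5.65) and 5.12 (3.73 to 7.22). Tapbp was at 15.9, 86.1 and 111 CPM (30, 404 and 402 UMIs), with ratios of 5.40 (3.72 to 8.11) and 6.95 (4.79 to 10.4). Tap1, the other transporter subunit, was at 8.50, 10.0 and 16.3 CPM (16, 47 and 59 UMIs), with ratios of 1.18 (0.656 to 2.23) and 1.91 (1.09 to 3.56), and did not pass. Psmb9, a catalytic immunoproteasome subunit, was at 3.19, 15.3 and 15.2 CPM (6, 72 and 55 UMIs), with ratios of 4.81 (2.11 to 13.5) and 4.75 (2.05 to 13.5), while its partner Psmb8 was at 18.1, 24.9 and 42.2 CPM and did not pass.

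Both ligand-binding receptor chains that were higher in NSC-like cells were also higher in PC-like cells. Ifnar2 was at 60.6, 162 and 191 CPM (114, 759 and 692 UMIs), with ratios of 2.67 (2.19 to 3.28) and 3.15 (2.58 to 3.87). Ifngr1 was at 44.1, 157 and 156 CPM (83, 735 and 567 UMIs), with ratios of 3.55 (2.83 to 4.51) and 3.54 (2.81 to 4.52). Ifngr2 was lower than at P5 without passing the rule, at 72.3, 43.9 and 38.9 CPM, with ratios of 0.607 (0.487 to 0.760) and 0.538 (0.422 to 0.686). Among induced genes, Ifitm1 was at 468, 1080.2 and 1146 CPM (881, 5070 and 4160 UMIs), with ratios of 2.31 (2.15 to 2.48) and 2.45 (2.28 to 2.64), of which predicted free RNA made up 5.71% and 6.71%. Ifi35 was at 29.2, 64.6 and 74.1 CPM (55, 303 and 269 UMIs), with ratios of 2.21 (1.65 to 3.00) and 2.54 (1.89 to 3.45). Ddx58 was at 7.44, 21.7 and 36.4 CPM (14, 102 and 132 UMIs), with ratios of 2.92 (1.66 to 5.53) and 4.89 (2.81 to 9.19). Ifit3 was at 4.25, 13.4 and 14.1 CPM (8, 63 and 51 UMIs), with ratios of 3.16 (1.51 to 7.63) and 3.31 (1.56 to 8.07). Most induced genes did not follow them, and Isg15 was at 26.6, 25.8 and 20.4 CPM, Ifi27 at 196, 235 and 223 CPM and Ifitm3 at 1163, 902 and 1001 CPM. When levels were scaled by the median ratio over genes, Ifitm1 was 1.98-fold and 2.06-fold and Ifi35 1.90-fold and 2.13-fold its P5 level, so that both passed at 24W alone. EC markers summed to 78.1, 93.95 and 191 CPM in PC-like cells and microglia markers to 23.4, 41.8 and 56.8 CPM, and their part was not tested.

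Smooth muscle-like (VSMC-like) cells had higher class I heavy chain levels in adults, as PC-like cells did, and, like AS-like cells among the 8 classes compared by age, had 1 gene of the 39 that was at least 2-fold lower at both adult ages. Of 26 genes compared, 10 were higher and 1 lower, next to 16.8% and 7.08% of all genes, and over genes of at least 10 CPM at P5 5 of 19 were higher, next to 9.91%. Scaled by the median ratio over genes, Ifi35 (1.70-fold) and Gbp2 (1.75-fold) at 24W and Ddx58 (1.80-fold) at 12W fell under 2-fold. H2-D1 was at 43.8, 283 and 425 CPM (22, 411 and 342 UMIs), with ratios of 6.47 (4.21 to 10.4) and 9.72 (6.31 to 15.7), and H2-K1 was at 11.9, 86.7 and 113 CPM (6, 126 and 91 UMIs). Bst2 was at 195, 48.2 and 64.6 CPM (98, 70 and 52 UMIs), with ratios of 0.247 (0.179 to 0.339) and 0.332 (0.232 to 0.469). In NSC-like cells Bst2 was instead 7.72-fold and 9.44-fold its P5 level, and the difference between the classes was not tested. Ifit3 had 0 UMIs in the 71 VSMC-like cells at P5. Against a floor of 3 UMIs in the P5 class, it was 4.96-fold higher at 12W and 4.17-fold higher at 24W. The lower ends of its ratio intervals were 3.86 and 3.09. EC markers summed to 57.7, 77.1 and 239.9 CPM in VSMC-like cells and microglia markers to 35.8, 49.6 and 49.7 CPM, and their part was not tested.

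Of a further 50 interferon and antigen presentation genes that were not among the 39, 20 could be compared in NSC-like cells, and 3 were higher at both adult ages (Parp12, Lgals3bp and Tlr3) and 1 lower (Socs3). In PC-like cells 22 could be compared, 4 were higher (Irf2, Parp12, H2-Q4 and Mavs) and 0 lower. These counts stand beside 8.56% and 14.1% of all genes higher and 2.97% and 6.55% lower in NSC-like and PC-like cells. A gene low at P5 entered here only when it was high later. No count over genes of at least 10 CPM at P5 is given for this list.

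Across cell classes of the 12W library, EC-like cells had the highest level of 28 of the 39 genes, next to 9.92% of 17806 genes with a UMI. Among genes with at least 50 UMIs in their highest class, 9 of 17 were highest in the 89 EC-like cells, next to 5.76% of 5228 genes. When each library was clustered alone, the number highest in EC-like cells was 29, with no share of all genes given. PC-like cells were highest for 4 genes (Ifitm1, Ifitm2, Ifngr1 and Tap2) and IMN2-like cells for 2 (Stat3 and Ifngr2). NPC-like cells were highest for Stat2, oligodendrocyte-like cells for Ifi27, and Ifit2, Tap1 and Ifih1 peaked in classes where they had 2 or 3 UMIs.

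The 5 genes with the largest step from the highest to the next class, among those with at least 50 UMIs in the highest, all peaked in EC-like cells. Bst2 was at 277 CPM (217 to 348) in EC-like and 48.2 CPM (37.6 to 60.9) in VSMC-like cells, a step of 5.75-fold. Ifnar1 was at 262 CPM (204 to 331) in EC-like cells and 55.4 CPM (18.0 to 129) in oligodendrocyte precursor-like cells on 5 UMIs, a step of 4.73-fold. Isg15 was at 285 CPM (224 to 357) in EC-like and 69.5 CPM (56.6 to 84.5) in VSMC-like cells, a step of 4.09-fold. The intervals did not overlap in these 3, but the genes were chosen by the size of the step, so this is no check on it. B2m was at 1966 CPM (1800.2 to 2143) in EC-like and 548 CPM (527 to 570.0) in PC-like cells, 3.58-fold apart. H2-K1 was at 391 CPM (319 to 474) in EC-like and 114 CPM (60.6 to 195) in ependymal-like cells on 13 UMIs, 3.44-fold apart. B2m and H2-K1 were chosen in the same way. At 24W the EC-like levels were 173 CPM for Bst2, 284 for Ifnar1, 230.0 for Isg15, 2019 for B2m and 525 for H2-K1. At P5 the 12 EC-like cells gave 134, 70.7, 31.4, 684 and 110.0 CPM for the same genes.

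Several genes with fewer UMIs had larger steps. Irf7 was at 144 CPM (102 to 198) in EC-like and 8.95 CPM (4.77 to 15.3) in VSMC-like cells. Ifit1 was at 167 CPM (121 to 224) in EC-like and 13.9 CPM (8.24 to 21.97) in NSC-like cells. Psmb9 was at 102 CPM (67.5 to 149) in EC-like and 15.3 CPM (12.0 to 19.3) in PC-like cells. For each of these the predicted free RNA was at most 1.35% of the EC-like level. NSC-like cells held the next highest level of Irf9, Ifit1, Ifit3, Ifit3b, Stat2, Usp18 and Psmb8. Class I presentation summed to 1359, 3958 and 4711 CPM in EC-like, 478, 1274 and 1615 in PC-like and 394, 956 and 1226 in VSMC-like cells at P5, 12W and 24W. The order EC-like, PC-like, VSMC-like, NSC-like, which was the same at each age, placed all 3 vascular classes above the NSC-like sum.

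**Figure D2:**
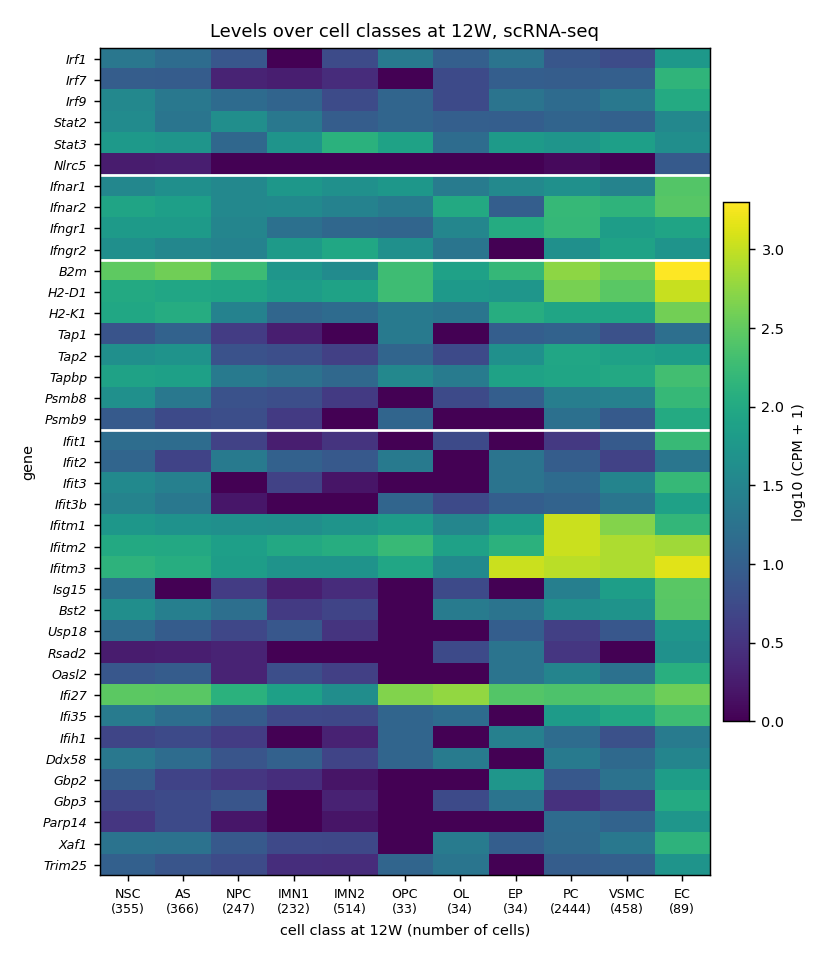
Level of the 39 genes in 11 cell classes of the 12W library, with genes in rows grouped by role, classes in columns with their number of cells, and colour for log10 of CPM + 1. The EC column of 89 cells is the brightest for 28 genes, and B2m reaches 1966 CPM there.

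Single cells with several interferon-induced RNAs were counted after each cell was thinned to 1000 UMIs, as cells with UMIs of 2 or more of 12 genes (Irf7, Ifit1, Ifit2, Ifit3, Ifit3b, Isg15, Usp18, Rsad2, Oasl2, Ifih1, Ddx58 and Xaf1). They were 28 of 89 EC-like cells at 12W, or 31.5% (22.03 to 42.2, exact binomial), and 20 of 106 at 24W, or 18.9% (11.9 to 27.6). At P5 they were 0 of 12, which allows a share of up to 25.0% by an approximate limit, used for each count of 0 in place of the exact interval. Among PC-like cells they were 0.524%, 1.43% and 1.55% at P5, 12W and 24W, with adult intervals of 0.999 to 1.99 and 1.03 to 2.25. Among NSC-like cells they were 0 of 1384, which allows up to 0.217% of cells at this thinned depth, then 5 of 355, or 1.41% (0.459 to 3.26), then 0 of 99, which allows up to 3.03%. IMN2-like cells gave 0 of 1151, 1 of 514 and 0 of 76, and their interval at 12W (0.00493% to 1.08%) overlapped that of NSC-like cells. Predicted free RNA alone, taken as even over cells and with each gene drawn on its own, would give 0.00509% of NSC-like cells at 12W and 0.00546% of EC-like cells. At P5 no barcodes of few UMIs were listed and no such value could be had. Median depths before thinning were 2751 UMIs in EC-like, 3434 in NSC-like and 3704.5 in IMN2-like cells at 12W. The EC-like interval at 12W lay above that of each neural class, while the NSC-like shares at 12W and at 24W could not be told apart. Without thinning, the shares were 9.16%, 3.07% and 5.11% of PC-like cells, so that P5 was then highest in value, with median depths of 4655, 1845.5 and 2025.5 UMIs. They were 60.7% and 50% of EC-like cells and 0.867%, 8.45% and 13.1% of NSC-like cells.

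**Figure D3:**
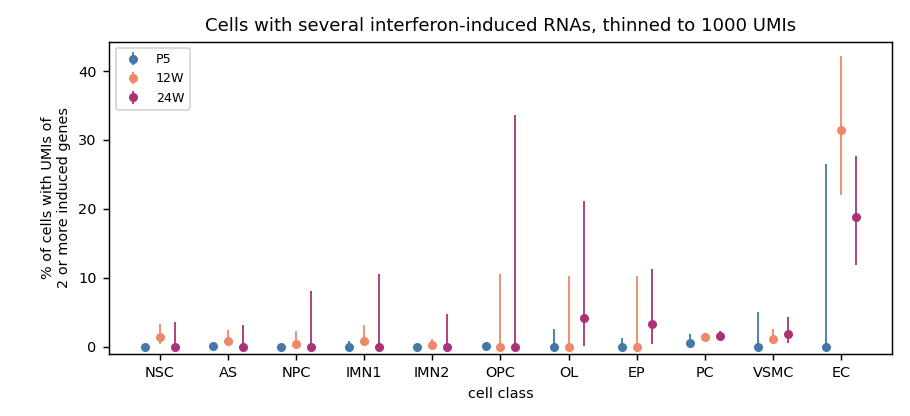
Percentage of cells in each class with UMIs of 2 or more of 12 induced genes after thinning to 1000 UMIs, with a point for each age and bars for exact 95% binomial intervals. EC-like cells stand at 31.5% at 12W and 18.9% at 24W, and the NSC-like points lie at 0%, 1.41% and 0%.

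Promoter accessibility was read from scATAC-seq as counts in peaks overlapping 1000 bases on either side of the start site, scaled to a total of 1000000 over all peaks (CPM), in 4440, 4570 and 937 neural and 405, 7658 and 4164 vascular cells at P5, 12W and 24W. All 39 genes had a peak at every age. The neural cells took in clusters led by ependymal markers, of 54, 525 and 128 cells at P5, 12W and 24W. At 12W and 24W they also took in clusters led by interneuron markers, of 162 and 16 cells. The 405 vascular cells at P5 were a cluster led by PC markers. EC-marked clusters held 66 of the vascular cells at 12W and 60 at 24W, and fibroblast-marked ones 49 and 21. The rest were in clusters led by PC or VSMC markers. In the 3 libraries in order of age, 19, 17 and 15 genes were at least 2-fold higher in vascular than in neural cells, next to 8.4%, 7.92% and 7.47% of all genes with a peak. In the other direction there were 0, 0 and 1, the last being Nlrc5 at 0.480 (0.422 to 0.545), next to 10.6%, 21% and 20.3% of all genes. With a window of 2000 bases the counts were 18, 17 and 15 in the first direction and 0 at each age in the other, with Nlrc5 at 0.593 (0.526 to 0.670). The median ratio of vascular to neural counts was 1.99, 1.77 and 1.61 over the 39 genes. Because peaks were called within each library, the ratio of both cell groups at 1 age uses the same peaks.

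In all 3 libraries the same 14 genes were past 2-fold, and 13 of them were induced genes, the other being Ifngr1. Without Isg15, whose P5 value depended on the window, they were 13. The shares of all genes given above are per library, and no share past 2-fold in all 3 stands beside this count. At Ifitm1, P5 gave 0.297 CPM in neural and 19.2 in vascular cells, a ratio of 64.5 (45.3 to 94.1), 12W gave a ratio of 10.2 (9.35 to 11.1) and 24W 10.4 (8.84 to 12.3). At Isg15, whose promoter holds 3 ISRE matches, 12W gave 1.98 CPM in neural and 10.97 in vascular cells, and the ratios were 17.3 (12.7 to 23.6), 5.53 (4.86 to 6.31) and 6.71 (5.24 to 8.73) at P5, 12W and 24W. With a window of 2000 bases, which took in a further peak, the Isg15 ratios were 1.86 (1.72 to 2.02), 2.96 (2.84 to 3.08) and 2.89 (2.71 to 3.09). At Bst2 they were 7.00 (6.04 to 8.09), 3.71 (3.43 to 4.02) and 3.18 (2.80 to 3.63). For these 3 genes counts were higher in vascular cells at each age by more than counting error, for Isg15 also with the wider window, where P5 was under 2-fold. Class I promoters were open in both groups. H2-D1 had 27.4 CPM in neural and 34.1 in vascular cells at 12W and ratios of 1.46 (1.31 to 1.61), 1.25 (1.19 to 1.30) and 1.37 (1.28 to 1.47). B2m had ratios of 1.81 (1.65 to 2.00), 1.87 (1.80 to 1.95) and 1.68 (1.57 to 1.79), and Psmb8 was the sole class I gene past 2-fold, at P5, with 2.08 (1.86 to 2.32). Tap1 and Psmb9 start 226 bases apart on opposite strands and share their peak, so their values are the same measurement.

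**Figure D4:**
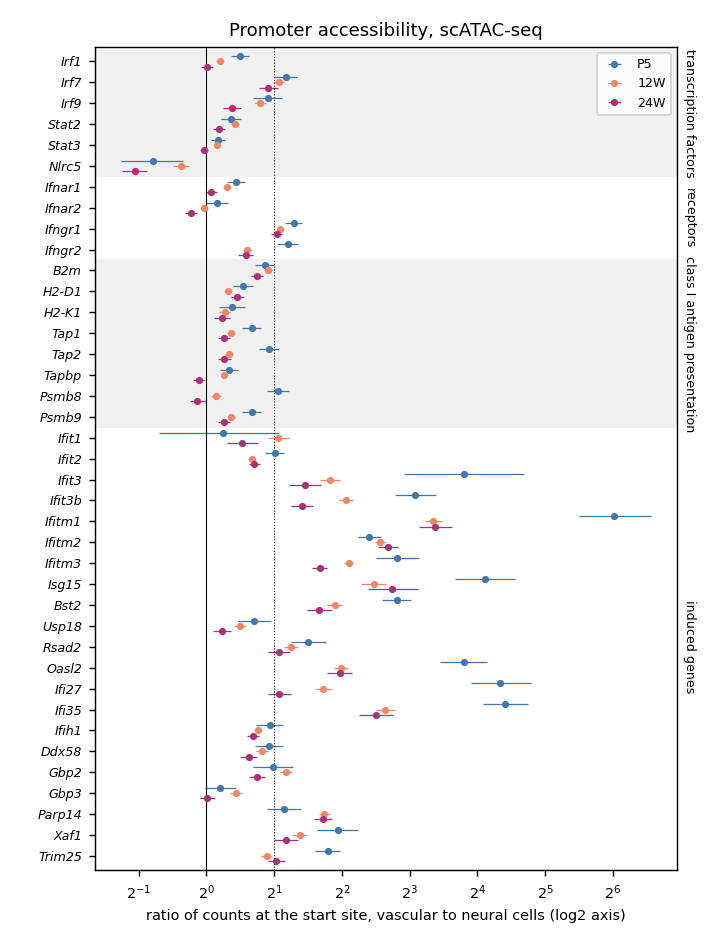
Ratio of counts at the start site in vascular to neural cells for each of the 39 genes on a log2 axis, with a point per age, 95% intervals for counting error, a solid line at 1 and a dotted line at 2. Ifitm1 lies farthest to the right, at 64.5 at P5, and class I genes lie between 0.913 and 2.08.

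With age, 11 genes had at least 2-fold more counts at the start site in neural cells at both 12W and 24W than at P5 (Ifit1, Ifit3, Ifit3b, Ifitm1, Ifitm3, Isg15, Oasl2, Ifi27, Ifi35, Ifih1 and Xaf1), next to 2.47% of all genes, and 0 were lower, next to 0.529%. Peaks at all 11 genes were also wider in both adult libraries, and at Ifit3 the peak length was 206, 1450 and 1513 bases. Per 1000 bases of peak, 3 genes (Ifit3, Ifitm1 and Ifi27) were past 2-fold, next to 0.35% of all genes, and 0 were lower, next to 1.37%. At Ifit3 neural cells had 0.180, 3.64 and 4.48 CPM at P5, 12W and 24W. In vascular cells 5 genes were higher with age (Ifit1, Ifit3, Ifitm1, Ifitm3 and Parp14), next to 2.28% of all genes, and 0 were lower, next to 19.6%, while per 1000 bases of peak 1 was higher (Ifit1) and 6 lower, next to 0.268% and 19.9%. Counts at the start sites of 15 vascular marker genes, of which 14 had a peak at P5, summed to 309, 566 and 573 CPM in neural cells and to 685, 2190 and 2339 in vascular cells, and their part in the neural values was not tested. The make-up of the neural and vascular groups by cluster also differed with age, and its part in these counts was not tested. The class I genes were not among the 11. Within the neural clusters marked by AS or NSC genes alone, 10 were higher and 0 lower, next to 2.14% and 5.33% of all genes. At P5 these were a cluster of 1289 cells led by AS markers and one of 324 led by NSC markers. At 12W and 24W they were clusters of 672 and 264 cells led by AS markers, with none led by NSC markers. Their make-up thus also differed with age. In 2437, 119 and 58 oligodendroglial cells 12 were higher and 0 lower, next to 2.96% and 2.8%. The vascular marker genes summed to 277, 569.9 and 533 CPM in those neural clusters and to 261, 574 and 600.1 CPM in oligodendroglial cells, and their part was not tested there either.

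In cultured NSCs, Setd8, which encodes the enzyme that monomethylates histone H4 at lysine 20, had been knocked down. RNA-seq was deposited for 6 libraries, of which 4 held transcripts per 1000000 (TPM). The other 2, labelled Ctrl_1 and Ctrl_2, held gene names and gene lengths in place of values and gave no expression levels. Their names and lengths were paired with the TPM of the 4 by row order. Of the 4, the libraries labelled Ctrl_3, Setd8KD_1 and Setd8KD_2 carried the values that the authors list as control and the library labelled Setd8KD_3 those listed as knockdown, each for 170 of 170 genes compared. Setd8 itself was at 154, 143 and 143 TPM in the first 3 and at 36.4 TPM in the library labelled Setd8KD_3. By the authors' listing the first 3 were taken as controls, against the titles of Setd8KD_1 and Setd8KD_2, which leaves 1 knockdown library, assumed to vary like the controls. Every direction below depends on this grouping, and by the titles 0 of the 39 genes were called in either direction. Libraries held 20040076 to 21493347 reads, recovered from TPM and gene length. Nothing in the labels says that the libraries came from separate cultures. With 1 knockdown library, p-values measure the spread among the 3 control libraries and not that of the knockdown. Markers of cultured NSCs were present in all 4 and summed over 6 genes to 11883, 12043 and 12017 TPM in the first 3 and to 10311 TPM in the library labelled Setd8KD_3, while 9 astrocyte markers summed to 1235, 1249.8 and 1258 TPM and to 1521 TPM. Of the NSC markers all but Sox2 lay below the controls. The astrocyte sum was higher chiefly through Mlc1 (608, 633 and 631 TPM and 986 TPM). Agt, Slc6a11 and Itih3 also lay above the controls, Aldoc, Aqp4 and S100b lay below them, and Htra1 and Gjb6 lay within. Their part in the results was not tested. In each library 6 of 7 microglia markers and 6 of 7 EC markers were under 1 TPM. In such bulk samples fewer cells of a type and less RNA per cell cannot be told apart.

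Of the 39 genes, 36 were tested, and 7 rose and 7 fell (limma on log2 of TPM + 1, Benjamini-Hochberg adjusted p under 0.05), next to 17.4% of 12703 genes up and 18.3% down. edgeR on recovered reads called 8 up and 15 down, 10 of the 15 induced genes, with 2891 up and 2961 down among all genes, and DESeq2 called 8 up and 10 down, 7 of the 10 induced genes, with 2162 up and 2287 down. A difference between roles was not tested. Of 8 class I genes, 5 rose and 0 fell, with a median log2 difference of 0.39. Of 18 induced genes, 1 rose and 5 fell, with a median of -0.73. Of 4 receptors, 0 rose and 1 fell, and of 6 transcription factors 1 rose and 1 fell. The library labelled Setd8KD_3 lay above all controls for 12 of the 36 and below them for 22, next to 41.3% and 40.8% of all genes. The median over all 36 was -0.44 and over all genes 0.00. Leaving out each control in turn changed these counts, as given at the end beside the counts over all genes.

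Among class I genes, H2-D1 was at 54.3, 58.0 and 61.4 TPM in the controls (in the order Ctrl_3, Setd8KD_1, Setd8KD_2, used throughout) and at 119 TPM in the library labelled Setd8KD_3 (log2 difference 1.03, SE 0.09, limma adjusted p = 0.00543). H2-K1 was at 159, 168 and 181 TPM and at 217 TPM (log2 difference 0.36, SE 0.10, limma adjusted p = 0.0473). The peptide loader Tapbp was at 24.5, 26.1 and 25.6 TPM and at 36.2 TPM (log2 difference 0.50, SE 0.07, limma adjusted p = 0.0122). In each, the library labelled Setd8KD_3 lay above all controls. Tap2 was at 15.9, 17.5 and 17.5 TPM and at 23.1 TPM (log2 difference 0.42, SE 0.09, limma adjusted p = 0.0251), and Tap1 was at 17.5, 21.4 and 20.9 TPM and at 28.4 TPM (log2 difference 0.49, SE 0.13, limma adjusted p = 0.0491). Both transporter subunits were above every control. H2-K1 lost its call without any 1 of the controls (limma adjusted p = 0.0672 without Ctrl_3, 0.115 without Setd8KD_1 and 0.0516 without Setd8KD_2). Tap2 lost it with limma adjusted p of 0.0609 without Setd8KD_1 and 0.0542 without Setd8KD_2, and Tap1 with 0.0651 without Setd8KD_1 and 0.0894 without Setd8KD_2. H2-D1 and Tapbp were called without any 1 of the controls but lost their calls with no filter on low values (limma adjusted p = 0.0506 and 0.0549), where 0 of the 8 class I genes were called. B2m was at 572, 616 and 617 TPM and at 696 TPM and was not called (adjusted p = 0.107, limma), and the immunoproteasome subunits Psmb8, at 13.9, 17.9 and 19.6 TPM and at 11.2 TPM, and Psmb9, at 9.84, 15.3 and 10.1 TPM and at 7.60 TPM, lay below all controls and were not called either. Ctrl_3 was the lowest control for all 8 class I genes.

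Of the transcription factors, Nlrc5, the class I transactivator, rose from 1.08, 1.55 and 1.06 TPM to 2.40 TPM (log2 difference 0.62, SE 0.15, limma adjusted p = 0.0373), a call that was lost with limma adjusted p of 0.0682 without Ctrl_3 and 0.0873 without Setd8KD_2. Irf9 fell from 18.5, 31.0 and 27.2 TPM to 10.1 TPM (log2 difference -1.23, SE 0.29, limma adjusted p = 0.0362), a call that was lost with limma adjusted p of 0.0503 without Setd8KD_1 and 0.0960 without Setd8KD_2. Irf7 was at 4.20, 12.1 and 9.61 TPM and at 1.71 TPM and was not called (adjusted p = 0.0676, limma). Stat3, Stat2 and Irf1 were not called. The receptor chain Ifngr1 fell from 29.4, 30.8 and 33.8 TPM to 16.8 TPM (log2 difference -0.85, SE 0.10, limma adjusted p = 0.00778) and was called without any 1 of the controls, but not with no filter on low values (limma adjusted p = 0.0732). Ifnar1, Ifnar2 and Ifngr2 were not called, with log2 differences of -0.10, 0.25 and 0.25.

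Of the 18 induced genes tested, 5 fell and 1 rose, and 14 lay below all controls in the library labelled Setd8KD_3, next to 40.8% of all genes. Ifit2 fell from 11.6, 11.9 and 11.3 TPM to 5.54 TPM (log2 difference -0.95, SE 0.07, limma adjusted p = 0.00457). Its controls were nearly equal, and it was called in each fit that left out a control and, alone among the 14 called genes, with no filter on low values. Ifih1, the RNA sensor MDA5, fell from 2.22, 3.07 and 3.196 TPM to 0.945 TPM (log2 difference -0.97, SE 0.17, limma adjusted p = 0.0181). Rsad2, the antiviral enzyme viperin, fell from 8.02, 12.6 and 10.6 TPM to 3.32 TPM (log2 difference -1.38, SE 0.24, limma adjusted p = 0.0167). Ifit1 fell from 4.77, 9.05 and 7.04 TPM to 2.02 TPM (log2 difference -1.36, SE 0.32, limma adjusted p = 0.0336). Usp18, which removes Isg15 from proteins and dampens type I interferon signalling, fell from 11.8, 34.1 and 26.2 TPM to 3.33 TPM (log2 difference -2.41, SE 0.58, limma adjusted p = 0.0367). In these 4 genes Ctrl_3 was the lowest control. Without Setd8KD_2 the limma adjusted p was 0.0564 for Rsad2, 0.0917 for Ifit1 and 0.0978 for Usp18, so that their calls were lost, and Ifih1 was called without any 1 of the controls but not with no filter on low values (limma adjusted p = 0.155). Ctrl_3 was the lowest control for 16 of the 18 induced genes, or 88.9%, next to 31.9% of all genes. Isg15 was at 26.4, 57.2 and 45.1 TPM and at 16.6 TPM, and Oasl2 was at 3.94, 13.1 and 10.1 TPM and at 1.12 TPM. Both lay below all controls and were not called (limma adjusted p = 0.0854 and 0.0563). The exception among the called induced genes was Ifitm2, which rose from 371, 346 and 360.1 TPM to 492 TPM (log2 difference 0.45, SE 0.08, limma adjusted p = 0.0157), with a limma adjusted p of 0.0525 without Setd8KD_1. Ifitm1 was listed at the added floor in all 4 libraries and Trim25 was under 1 TPM, and neither was tested.

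**Figure D5:**
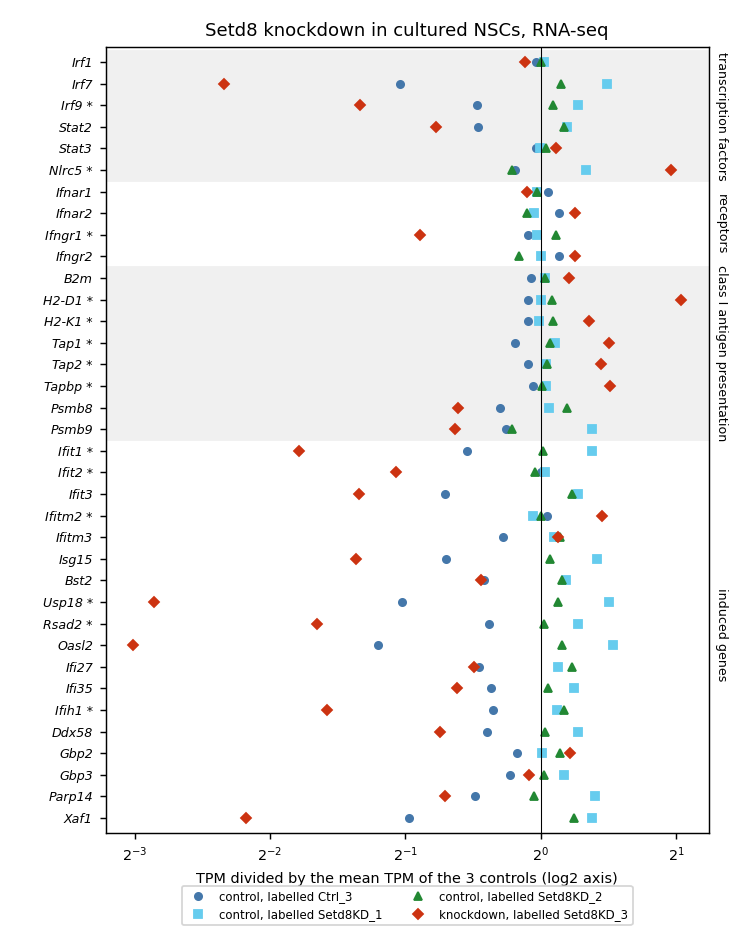
TPM of each tested gene in the 4 libraries divided by the mean of the 3 controls, on a log2 axis, with genes grouped by role, a marker per library and an asterisk for genes called by limma. H2-D1 of the library labelled Setd8KD_3 stands to the right of its controls at 2.06 and Usp18 to the left at 0.138, while the controls of Usp18 are themselves spread.

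Of the further 50 interferon and antigen presentation genes, 40 were tested, and 4 rose and 5 fell, or 10% and 12.5%, which are under the 17.4% and 18.3% of all genes, with a median log2 difference of -0.21. The non-classical class I gene H2-T23 rose from 4.30, 4.76 and 4.52 TPM to 15.8 TPM (log2 difference 1.60, SE 0.08, limma adjusted p = 0.00399). Irf8 rose from 1.24, 1.36 and 1.03 TPM to 2.01 TPM and Tyk2, a kinase of the type I interferon receptor, from 10.6, 10.5 and 10.8 TPM to 13.5 TPM, with limma adjusted p of 0.0366 and 0.0261. H2-T23 was called without any 1 of the controls, while Irf8 and Tyk2 lost their calls in each such fit, with limma adjusted p of 0.0521 to 0.0642 and 0.0506 to 0.0930. Rtp4 fell from 19.9, 45.8 and 40.4 TPM to 7.64 TPM (log2 difference -1.99, SE 0.49, limma adjusted p = 0.0375), with limma adjusted p of 0.0558 without Setd8KD_1 and 0.0966 without Setd8KD_2. Oasl1, of the Oas family, fell from 5.07, 7.10 and 8.52 TPM to 1.87 TPM (log2 difference -1.44, SE 0.26, limma adjusted p = 0.0186). Eif2ak2, the kinase PKR that halts translation on double-stranded RNA, fell from 24.2, 32.0 and 27.9 TPM to 13.02 TPM (log2 difference -1.04, SE 0.16, limma adjusted p = 0.0134). Both were called without any 1 of the controls.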

How the data were processed

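The members and gene lists were chosen with earlier results of these data known. The deposited scRNA-seq and scATAC-seq values are counts (UMIs per gene, and counts per peak called in each library), for which the authors used Cell Ranger and the mm10 build, in version 2.2.0 for scRNA-seq per the submitters' notes. The deposited RNA-seq values are TPM, made by the authors with Trimmomatic and STAR on mm10, and reads recovered from TPM and gene length came out whole (within 0.05 reads) for 99.3% to 99.8% of genes.

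Barcodes under 1000 UMIs or 500 genes, or over 10% mitochondrial, were dropped, leaving 13684, 5351 and 2797, and 932, 80 and 3 doublets were removed with Scrublet in scanpy 1.11.5 (0.107% of barcodes at 24W). Cells held 98.2%, 70.6% and 63.0% of library UMIs. The P5 library lists no barcode under 1495 UMIs. Cells were integrated and clustered in Seurat 5.3.0 (R 4.3.3) without the 39 genes and named from marker genes. Unnamed cells numbered 2841, 383 and 207, an AS-like cluster of 1140 cells was led by haemoglobin genes, and an NSC-like one of 1047 by the stress-responsive Fos. CPM carry exact Poisson and ratios exact conditional binomial intervals. No test was made with 1 library per age. A gene was called different at 2-fold or more in 1 direction at 12W and 24W, with at least 10 CPM averaged over the ages. scATAC-seq cells (3000 to 100000 counts in peaks) numbered 8789, 12640 and 6041, with no doublet call, and were clustered in scikit-learn 1.9.0 and leidenalg 0.10.2. TPM were tested as log2(TPM + 1) with limma 3.58.1 over 12703 genes of at least 1 TPM on average and checked with edgeR 4.0.16 and DESeq2 1.42.0 on recovered reads. Fold changes on this scale understate those of low genes. Scripts were tested on simulated data. Values in full are given for genes called in the knockdown, past the 2-fold rule in NSC-like or PC-like cells, or among the 5 with the largest step between classes at 12W, and other genes were named beside them after their values were seen. Alternatives covered scaling, filters, free RNA, sex, doublets, clustering, thinning, peak width, pseudocount, grouping and each control left out. ChIP-seq and bulk ATAC-seq were not analysed here.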

Additional observations from a re-analysis of the deposited data

Results flagged for a closer look

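Bst2 moved in opposite directions with age in VSMC-like and NSC-like cells. In VSMC-like cells Bst2 at 12W was 0.247-fold its P5 level (0.179 to 0.339) and at 24W 0.332-fold (0.232 to 0.469), from 98, 70 and 52 UMIs. In NSC-like cells it was 7.72 (4.90 to 12.4) and 9.44 (4.99 to 17.3), from 32, 54 and 18 UMIs. With 1 library per age the difference between the classes was not tested, and the intervals cover counting error only.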

How the results depend on the processing

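With age in NSC-like cells, the number of genes higher was 11 at a mean of 30 CPM and 7 at 10 CPM at P5, and in AS-like cells 9 and 7. With no filter on low levels it was 25 in AS-like, 19 in NPC-like, 16 in IMN1-like and 14 in IMN2-like cells, and at 30 CPM 4, 2, 5 and 6 in IMN1-like, IMN2-like, ependymal-like and VSMC-like cells. At 1.5-fold it was 17 in VSMC-like cells, at 10 CPM at P5 it was 2 in IMN1-like, 1 in IMN2-like, 5 in ependymal-like and 5 in VSMC-like cells, and at 24W alone 9 in IMN2-like cells. With predicted free RNA subtracted it was 3 in NPC-like, 2 in IMN1-like, 0 in IMN2-like and 5 in ependymal-like cells, and Ifitm1 in NSC-like cells had ratios of 0 and 0. Another seed of the neural clustering, added after the data were seen, gave 19 in the NSC-like and 17 in the AS-like class. Clustering each library alone gave 13 in the AS-like class but no NSC-like or IMN1-like value at every age. Apart from those at 10 CPM at P5, these counts of genes stand without a share of all genes at the same setting. They are not read as results about the group. Cells with 2 or more induced RNAs were, without thinning, 0.867%, 8.45% and 13.1% of NSC-like, 9.16%, 3.07% and 5.11% of PC-like and, at 12W and 24W, 60.7% and 50% of EC-like cells. With 3 or more genes they were 0%, 0.205% and 0.172% of PC-like and 15.7% and 9.43% of EC-like cells. Per 1000 bases of peak, 3 promoters in neural and 1 in vascular cells were higher with age. In the knockdown with limma, a pseudocount of 0.1 left H2-K1, Tap1, Nlrc5 and Irf9 without a call. No filter on low values, which added genes to the correction, left 0 up and 1 down of 38 tested, 0 class I genes up, 1 induced gene down, and 1072 up and 863 down among all genes, with 9 of the 38 at an unadjusted p under 0.05. edgeR gave 15 down, 10 of them induced. Grouping by titles gave 0 up, 0 down and 0 among all genes, with 1 of 36 and 122 genes at an unadjusted p under 0.05, and log2 differences of 0.15 for Irf9, 0.12 for Ifit1 and 0.32 for Usp18. Leaving out each control gave 3 to 5 up, 3 to 18 down, 2 to 4 class I genes up, 2 to 13 induced genes down, and 1268 to 1942 up and 1371 to 2038 down among all genes. The cause of these shifts was not tested. Depth limits NSC-like values most at 24W, where 3 UMIs are 8.50 CPM. No paired analysis was possible because the 1 knockdown library shares its number with Ctrl_3 alone and a block would leave no comparison.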
